A study of Homo sapiens with 8 samples.

Results

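Expression of 39 pluripotency genes was examined in the RNA-seq counts of 4 conditions of the human embryonic stem cell (hESC) line H9. The genes were listed by name as markers of pluripotent cells, and were sorted here into 21 shared genes, which mark pluripotent cells in general, 8 primed genes and 10 naive genes. Of these, 38 had a row among the 57773 genes of the counts. The remaining gene, the primed surface marker CD24, had no row under its symbol and is not analysed here. Each condition had 2 libraries. WT cells were untreated and carried the label wild type (CHD7-HA), that is, an HA tag on the endogenous chromatin remodeler CHD7. CHD7 KO cells (CHD7 -/-) were untreated. HERVH KD cells had the WT genotype and were harvested 24 h after LNA-GapmeRs, antisense oligonucleotides against RNA of the endogenous retrovirus family HERVH, were added. HERVH KO cells were untreated and lacked 1 HERVH element on Chr2. The knockout lines were made by CRISPR-Cas9, the labels do not say whether replicates came from separate clones or cultures, and the p-values below therefore measure only the spread between these libraries, which may be technical. In the knockout lines, which were grown from picked colonies, an effect of the edit and a difference between lines cannot be told apart. The HERVH KD cells were set against untreated WT cells, so that an effect of HERVH loss and an effect of the oligonucleotide treatment cannot be told apart. In bulk RNA, fewer cells expressing a gene and less RNA per cell cannot be told apart either.

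Human pluripotent cells can be held in a naive state, which resembles the epiblast before implantation, or in a primed state, which resembles the epiblast after implantation. Conventional hESC lines such as H9 are primed. Both states use the transcription factors POU5F1 (OCT4) and SOX2, naive cells add factors such as KLF17, KLF4 and TFCP2L1 and the germline protein DPPA3, and primed cells express the de novo methyltransferase DNMT3B and the factors OTX2 and ZIC2.

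Between 14802049 and 23156445 reads per library were counted on genes. Levels of 1 gene across libraries are given as CPM (counts relative to library size after TMM scaling), in which 3 counts, taken as the floor of detection, equalled 0.128 to 0.218 CPM depending on the library. Levels of different genes were compared as RPKM (CPM per kilobase of exon). Counts of CHD7 itself were 14098 and 13888 for WT, 4269 and 3667 for CHD7 KO, 11426 and 7061 for HERVH KD and 16623 and 12799 for HERVH KO, so it was lowest in the knockout libraries. HERVH elements are not features of the counts, and neither the knockdown nor the deletion was checked here. The HERVH KD libraries stood apart: their replicates had a median SD of 0.246 on the log2 CPM scale over the more highly expressed genes, against 0.118 for WT, 0.103 for CHD7 KO and 0.0757 for HERVH KO. In HERVH KD replicate 2 8.87% of all counts fell on the 10 most abundant genes, a share of 4.09% to 5.08% elsewhere.

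All 21 shared and all 7 primed genes with a row were expressed in WT H9 cells, with at least 1 CPM in both WT libraries, whereas 3 of the 10 naive genes were. These 31 genes compare with 28.9% of all genes in the counts that met the same rule. At a stricter limit of 1 RPKM in both WT libraries, 28 genes remained, all of them shared or primed. WT levels ran from 2.12 to 536 RPKM among shared genes (median 39.6) and from 9.21 to 284 RPKM among primed genes (median 43.0). The naive genes lay between 0 and 1.14 RPKM (median 0.186), below every shared and primed gene.

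Among the shared genes, LIN28A, an RNA-binding protein that blocks maturation of let-7 miRNAs, had the highest level, with 528 and 545 RPKM in the WT libraries. POU5F1 followed with 376 and 326 RPKM. PODXL, the sialomucin that carries the TRA-1-60 antigen, had 235 and 227 RPKM. The ranges of LIN28A, POU5F1 and PODXL over the WT libraries did not overlap. SOX2 had 94.6 and 83.1 RPKM and NANOG 14.1 and 14.7 RPKM, so the 3 core factors POU5F1, SOX2 and NANOG differed widely in level. The lowest shared genes were GDF3, a ligand of the TGF-beta family (2.05 and 2.72 RPKM), DPPA2, a SAP-domain DNA-binding protein (2.90 and 1.69 RPKM), and UTF1, a chromatin-associated protein (2.47 and 1.77 RPKM), and their ranges overlapped. The other shared genes, with mean WT levels between those of TERT, the catalytic subunit of telomerase (4.78 RPKM), and TDGF1, a co-receptor for the ligand Nodal (189 RPKM), were the RNA-binding proteins LIN28B and L1TD1, the zinc finger factors SALL4, PRDM14 and ZFP42 (REX1), DPPA4, the methyltransferase DNMT3A, the Polycomb partner JARID2, TRIM71, MYCN and FOXH1, a transcription factor of the Nodal pathway.

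The primed genes were led by SFRP2, a secreted Wnt modulator, with 312 and 257 RPKM. DNMT3B had 151 and 190 RPKM, and the zinc finger factor ZIC2 had 136 and 123 RPKM. These 3 genes lay among the 8 highest of the 38. The surface protein THY1 had a mean of 43.0 RPKM. The lowest primed genes were the homeobox factor OTX2 (22.0 and 22.8 RPKM), the SOXB1 factor SOX3 (18.0 and 20.7 RPKM) and the zinc finger factor SALL1 (10.4 and 8.05 RPKM), and even SALL1 exceeded the highest naive gene in both WT libraries.

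The naive genes expressed in WT cells were the transcription factors KLF4 and TFCP2L1 and the orphan nuclear receptor ESRRB. KLF4 had 1.51 and 0.766 RPKM, from 120 and 60 counts. TFCP2L1 had 0.636 and 0.739 RPKM. ESRRB had 0.202 and 0.189 RPKM, from 26 and 24 counts. DPPA3 (STELLA), which protects DNA methylation in the early embryo, had 0.630 and 0.765 RPKM, from 15 and 18 counts, a range that overlapped with that of TFCP2L1. DPPA3, KLF5 (38 and 13 counts) and the methyltransferase cofactor DNMT3L (5 and 9 counts) were low, above the floor but under 1 CPM in at least 1 WT library. At the floor were KLF2 with 1 and 1 counts, TBX3 with 2 and 0, and DPPA5 and KLF17 with 0 in both, which allows up to 0.139 and 0.140 CPM in the WT libraries. Along the order of all 38 genes by WT level, 16 of the 37 pairs of neighbours had overlapping WT ranges.

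**Figure D1:**
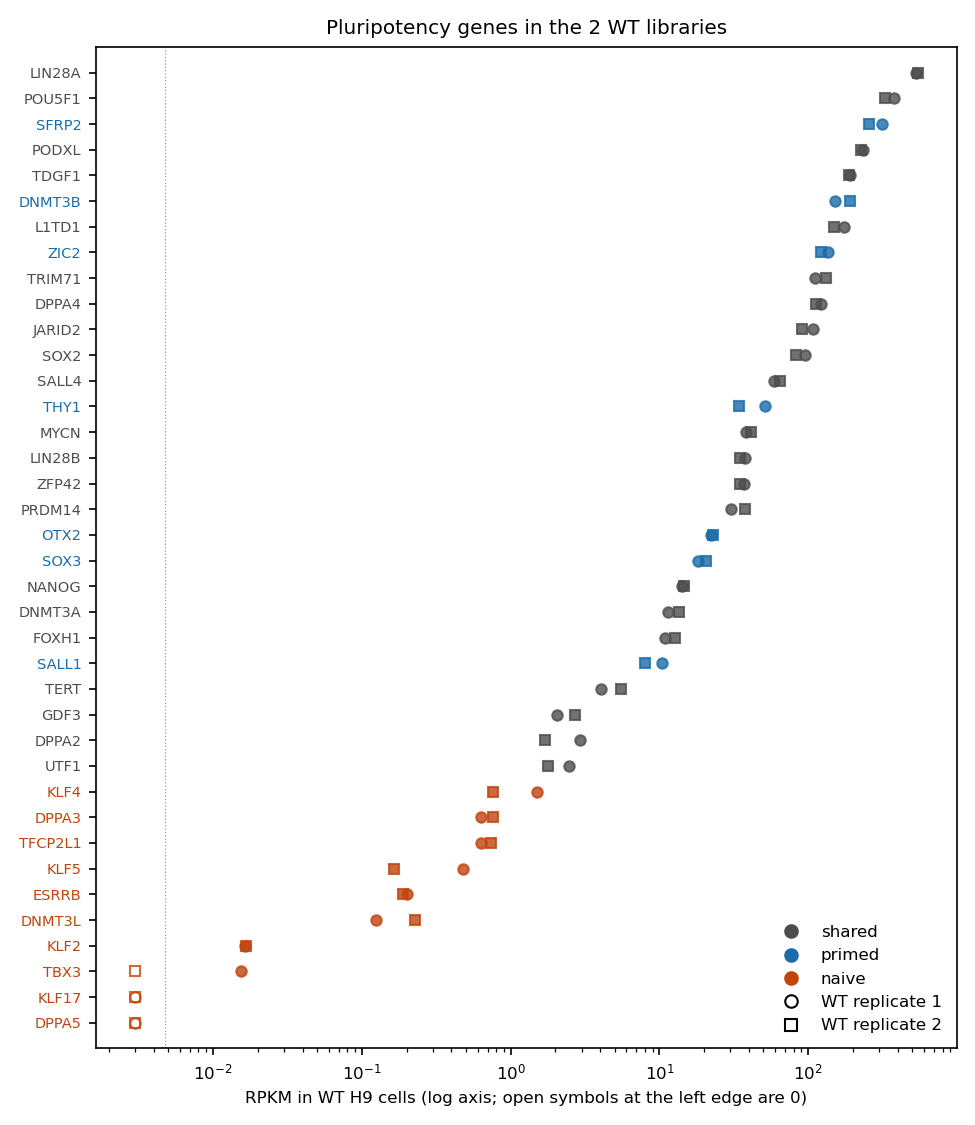
Level of each of the 38 pluripotency genes in WT H9 cells, as RPKM on a log axis, with 1 symbol for each of the 2 WT libraries and colours for shared, primed and naive genes. The naive genes fill the lower end, from 0 to 1.14 RPKM in the mean, and LIN28A (mean 536 RPKM) leads the shared genes.

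Some of these counts could be split with near-identical copies. The counts hold 61 pseudogenes or paralogs of 15 of the genes, and 26 of them had more than 3 counts in some library. NANOGP1 held 14.6% and NANOGP8 12.2% as many WT counts as NANOG, and TDGF1P3 held 8.28% as many as TDGF1. KLF4P1 held 22.8% as many WT counts as KLF4. Its counts were 27 and 14 for WT, 31 and 16 for CHD7 KO, 37 and 51 for HERVH KD and 21 and 32 for HERVH KO. KLF2P1 was counted 52 and 82 times in WT, where KLF2 had 1 and 1. For DPPA3, counts of the copy DPPA3P6 were 12 and 21 for WT and 21 and 20 for CHD7 KO. Antisense or overlapping genes lie on several of the genes (for example TCF19 on POU5F1 and KIFC2 on FOXH1), and as the strand setting of the counting is not given in the sources used here, their reads may be mixed with those of the pluripotency genes.

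Whether loss of CHD7 changed the pluripotency genes was asked by comparing CHD7 KO with WT. GDF3 and DPPA3 rose strongly, DPPA2 rose, OTX2 fell, and the other 29 genes tested did not pass either threshold. Of the 39 genes, 33 passed the filter on low counts (21 shared, 7 primed and 5 naive). DNMT3L, DPPA5, KLF2, KLF17 and TBX3 did not. Genes were called DEGs in edgeR's quasi-likelihood test at a change of at least 2-fold and an FDR (Benjamini-Hochberg, 23474 genes) below 0.01, and a second rule took an FDR below 0.05 with any change. Of the 33 genes, 2 were DEGs (GDF3 and DPPA3), where 0.571% of all genes tested were. At an FDR below 0.05, 3 were higher and 1 was lower in CHD7 KO, where 1.19% of all genes were higher and 0.613% lower (1.81% together). The genes were chosen with earlier results of these data known, so these shares are not a test of the list.

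GDF3 had 2.54 and 3.37 CPM in WT, 43.8 and 42.7 in CHD7 KO, 3.45 and 3.93 in HERVH KD and 2.05 and 2.70 in HERVH KO. Both CHD7 KO libraries lay above all 6 other libraries. GDF3 was 43.2 ± 0.819 CPM (SD, n = 2) in CHD7 KO and 2.95 ± 0.585 CPM (SD, n = 2) in WT, a 14.6-fold rise (log2 fold change 3.87 ± 0.25 SE, with an FDR = 3.2e-06 by edgeR's quasi-likelihood test). In RPKM, GDF3 moved from 2.05 and 2.72 in WT to 35.4 and 34.5 in CHD7 KO, levels close to those that LIN28B and ZFP42 had in WT.

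DPPA3 had 0.693 and 0.842 CPM in WT, 12.1 and 13.9 in CHD7 KO, 0.383 and 0.291 in HERVH KD and 0.855 and 0.701 in HERVH KO. Again both CHD7 KO libraries stood above all others, with 261 and 259 counts against 4 to 20 counts in the other 6. The rise was 16.8-fold (log2 fold change 4.07 ± 0.34 SE, with an FDR = 2.13e-05 by edgeR's quasi-likelihood test). With 11.0 and 12.7 RPKM in CHD7 KO, DPPA3 exceeded the level of every naive gene in WT. The calls of GDF3 and DPPA3 held under all 18 alternatives of the analysis.

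DPPA2 had 4.02 and 2.34 CPM in WT, 8.27 and 11.4 in CHD7 KO, 1.70 and 2.40 in HERVH KD and 2.44 and 2.91 in HERVH KO. Both CHD7 KO libraries were again above all 6 others. The rise was 3.09-fold (log2 fold change 1.63 ± 0.33 SE, with an FDR = 0.0243 by edgeR's quasi-likelihood test), which passed the second rule but not the first. The call was lost without WT replicate 2 (FDR = 0.297), CHD7 KO replicate 1 (FDR = 0.0797) or CHD7 KO replicate 2 (FDR = 0.223) in edgeR's quasi-likelihood test.

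OTX2, the primed gene that changed, had 74.9 and 77.6 CPM in WT, 44.4 and 39.3 in CHD7 KO, 79.3 and 51.3 in HERVH KD and 89.9 and 84.98 in HERVH KO. Both CHD7 KO libraries were below all others. OTX2 was 1.82-fold lower in CHD7 KO than in WT (log2 fold change -0.86 ± 0.20 SE, with an FDR = 0.0396 by edgeR's quasi-likelihood test). Its call was lost when WT replicate 1 (FDR = 0.232), WT replicate 2 (0.261), CHD7 KO replicate 1 (0.253), CHD7 KO replicate 2 (0.375), HERVH KO replicate 1 (0.0901) or HERVH KO replicate 2 (0.0859) was left out of the fit in edgeR's quasi-likelihood test.

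**Figure D2:**
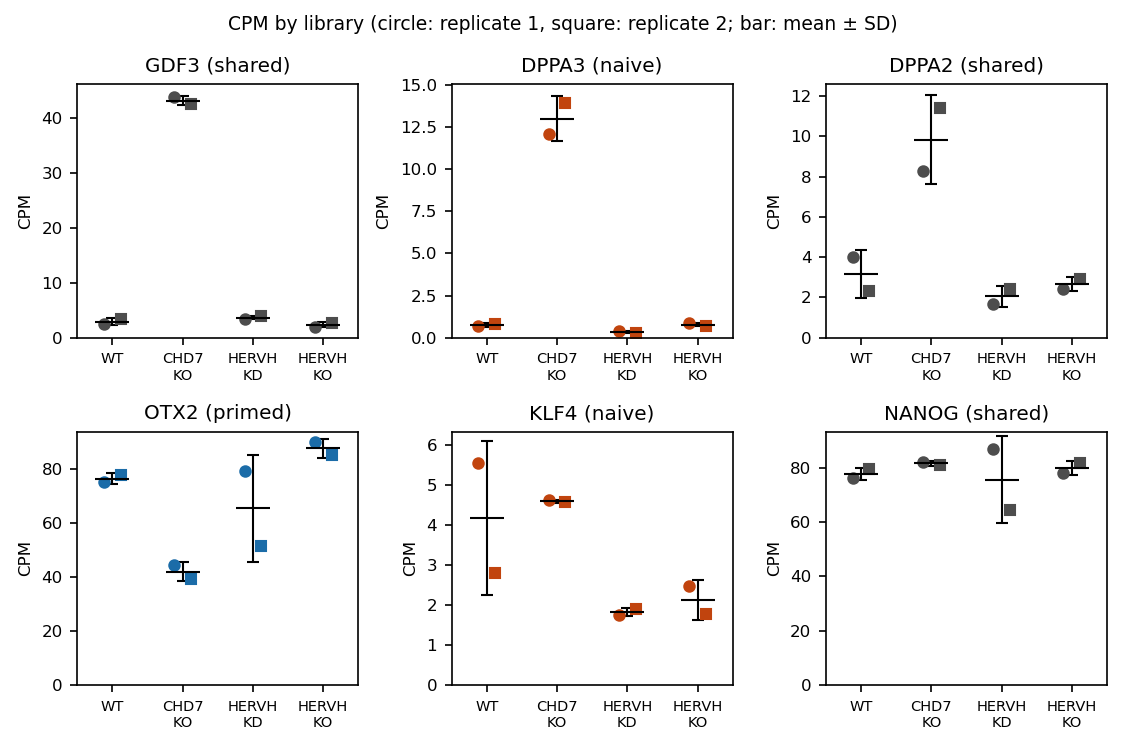
CPM of GDF3, DPPA3, DPPA2, OTX2, KLF4 and NANOG in the 8 libraries, by condition, with each library as a symbol (circle for replicate 1, square for replicate 2) and a bar for the mean ± SD of the 2 libraries. The CHD7 KO libraries lie above all others for GDF3 (43.8 and 42.7 CPM), DPPA3 and DPPA2, and below all others for OTX2 (44.4 and 39.3 CPM).

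The core factors were not called. POU5F1 had 1078 and 937 CPM in WT and 1089 and 965 in CHD7 KO. SOX2 had 238 and 209 CPM in WT and 289 and 232 in CHD7 KO. NANOG had 76.2 and 79.4 CPM in WT and 82.3 and 81.1 in CHD7 KO. The WT and CHD7 KO ranges of POU5F1 and SOX2 overlapped, and NANOG was slightly higher in both CHD7 KO libraries without passing either rule. In the classes, the median log2 fold change in CHD7 KO was 0.11 over the 21 shared genes, with 15 values above 0 and 6 below, and -0.28 over the 7 primed genes, with 1 above 0 and 6 below. Over all genes tested the median was -0.01 and 48.5% of values were above 0. The primed median was not stable: it was -0.15 with GC correction, -0.17 without CHD7 KO replicate 1, -0.16 without CHD7 KO replicate 2 and 0.027 without WT replicate 1, which turned its sign. The shared median was 0.067 without CHD7 KO replicate 1 and 0.21 without CHD7 KO replicate 2.

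GDF3 and DPPA3 are next to each other on chromosome 12 at 12p13.31, with NANOG beyond them. On GRCh37, GDF3 lies at chr12:7842380-7848371 on the minus strand, DPPA3 at chr12:7864029-7870155 on the plus strand and NANOG at chr12:7940390-7951742 on the plus strand. The gap from GDF3 to DPPA3 is 15.7 kb and that from DPPA3 to NANOG is 70.2 kb. CLEC4C, which lies between DPPA3 and NANOG, had at most 6 counts in any library. On the far side of NANOG, the CHD7 KO log2 fold changes were -0.25 for the glucose transporter gene SLC2A14, 0.29 for NANOGP1 and -0.46 for SLC2A3, all at an FDR above 0.05. The 20 tested genes around DPPA3 had a median log2 fold change of 0.07. DPPA2 lies at chr3:109012635-109035364, 9.63 kb from DPPA4 on the same strand. DPPA4 had 608 and 559 CPM in WT and 785 and 775 in CHD7 KO, groups that did not overlap, but did not pass either rule. SALL1 lies in a stretch of chromosome 16 in which the 20 neighbours had a median log2 fold change of 0.73 in CHD7 KO, whereas SALL1 had 65.3 and 50.7 CPM in WT and 51.5 and 59.0 in CHD7 KO.

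**Figure D3:**
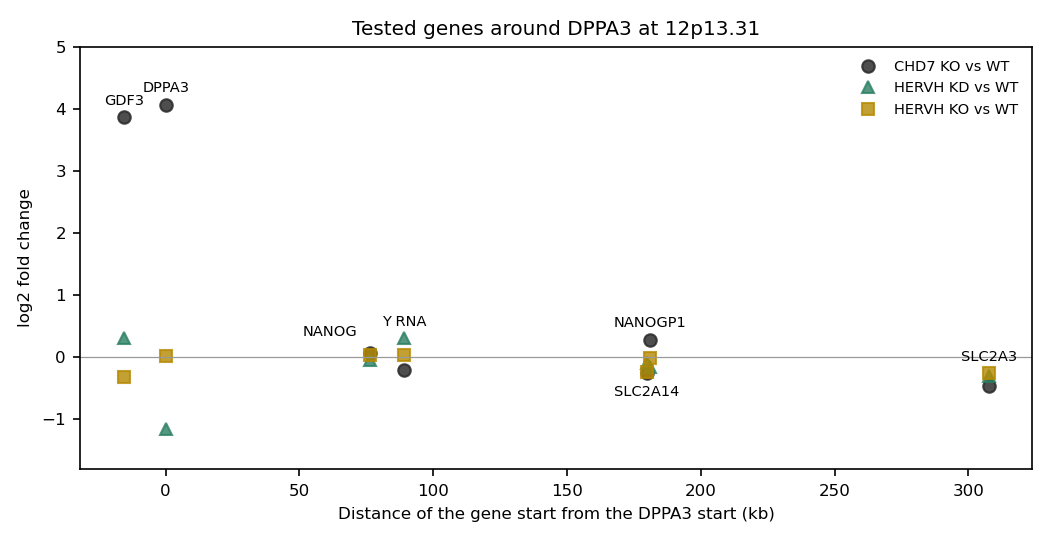
log2 fold change of the tested genes at 12p13.31 against WT, by the distance of each gene's start from the start of DPPA3 in kb, with a symbol for each of the 3 comparisons and no error bars. GDF3 (3.87) and DPPA3 (4.07) stand out in CHD7 KO. The CHD7 KO values of NANOG (0.07), SLC2A14 (-0.25), NANOGP1 (0.29) and SLC2A3 (-0.46) are smaller in size and were not called.

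The sequences around the starts of the 3 genes that rose in CHD7 KO, and of their neighbour NANOG, are shown because GDF3 and DPPA3 moved together beside a gene that was not called. They come from RefSeq on GRCh38.p14, which gave such windows for 28 of the 39 genes. Each window runs 5′ to 3′ on the gene's strand, from 250 bases before the start to 30 bases after it, and lies at chr12:7695746-7696025 (minus strand), chr12:7711183-7711462 (plus), chr3:109316488-109316767 (minus) and chr12:7789152-7789431 (plus). Capitals mark matches to the 4 motifs searched on both strands: the octamer ATGCAAAT of POU factors, CATTGT of SOX factors, the GC box GGGCGG and the TATA box TATAAA.
GDF3: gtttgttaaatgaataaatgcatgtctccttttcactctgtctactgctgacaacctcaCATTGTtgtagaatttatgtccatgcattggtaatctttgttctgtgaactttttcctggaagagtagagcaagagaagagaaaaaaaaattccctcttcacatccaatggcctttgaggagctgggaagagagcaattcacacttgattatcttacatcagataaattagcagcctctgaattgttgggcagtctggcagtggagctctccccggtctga
DPPA3: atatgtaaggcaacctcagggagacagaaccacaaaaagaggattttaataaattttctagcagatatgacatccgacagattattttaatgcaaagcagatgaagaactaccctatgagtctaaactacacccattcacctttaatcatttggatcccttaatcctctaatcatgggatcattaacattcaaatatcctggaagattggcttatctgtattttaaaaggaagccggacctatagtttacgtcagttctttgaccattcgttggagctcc
DPPA2: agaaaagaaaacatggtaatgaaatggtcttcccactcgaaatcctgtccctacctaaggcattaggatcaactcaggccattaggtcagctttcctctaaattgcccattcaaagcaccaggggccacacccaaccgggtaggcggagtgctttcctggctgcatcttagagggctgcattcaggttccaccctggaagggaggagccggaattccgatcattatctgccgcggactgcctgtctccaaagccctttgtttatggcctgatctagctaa
NANOG: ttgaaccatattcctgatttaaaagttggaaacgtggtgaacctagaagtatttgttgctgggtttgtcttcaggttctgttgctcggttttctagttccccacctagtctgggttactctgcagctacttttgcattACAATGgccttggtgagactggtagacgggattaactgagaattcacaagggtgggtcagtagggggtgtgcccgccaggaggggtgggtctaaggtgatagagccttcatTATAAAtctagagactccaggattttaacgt

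The SOX letters were found once in the GDF3 window and once in that of NANOG, where 10.3% of all 35116 windows held them. The TATA letters were found in the NANOG window alone of these 4, and in 11.2% of all windows. In NANOG they begin at position -1 and run across the start, so they are not read as a TATA box here. None of the 4 held the octamer (1.74% of all windows) or the GC box (44.1%). The search took exact letters only, so variants of a motif were missed, and binding was not tested. The GDF3 window held 1 CpG, DPPA3 4, NANOG 5 and DPPA2 7, while the median of all windows was 13, so each of the 4 was below the median, the called and the uncalled genes alike.

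Whether HERVH RNA knockdown changed the pluripotency genes was asked by comparing HERVH KD with WT. No pluripotency gene passed either rule, and KLF4 and DPPA3, both with lower values in HERVH KD, had the largest log2 fold changes. Of the 33 genes, 0 were DEGs and 0 passed an FDR below 0.05 in edgeR's quasi-likelihood test, where 0.217% and 2.15% of all genes tested did. At an unadjusted p below 0.05 there were 8, beside 19.0% of all genes tested. DESeq2 gave 0 DEGs (1.58% of all genes) and 1 gene at an FDR below 0.05, DNMT3A (5.36% of all genes).

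KLF4 had 5.54 and 2.81 CPM in WT and 1.75 and 1.89 in HERVH KD, from 120 and 60 against 32 and 26 counts. The HERVH KD libraries lay below both WT libraries, but the WT values were far apart. The log2 fold change was -1.20 with an SE of 0.38 and an FDR = 0.12 by edgeR's quasi-likelihood test. With a correction for GC content it passed the second rule (FDR = 0.038, edgeR quasi-likelihood test). Counts of the pseudogene KLF4P1 went the other way, with 27 and 14 in WT and 37 and 51 in HERVH KD. A split of reads between KLF4 and KLF4P1 was not tested. DPPA3, with 7 and 4 counts in HERVH KD, had a log2 fold change of -1.15 with an SE of 0.46 and an FDR = 0.198 by edgeR's quasi-likelihood test, and ESRRB, with 9 and 14 counts, one of -0.65 (SE 0.55, FDR = 0.554 in edgeR). The smallest FDR was that of DNMT3A, which had 157 and 187 CPM in WT and 246 and 274 in HERVH KD (log2 fold change 0.59 ± 0.15 SE, with an FDR = 0.055 by edgeR's quasi-likelihood test). GDF3, which rose in CHD7 KO, had 3.45 and 3.93 CPM in HERVH KD against 2.54 and 3.37 in WT and was not called.

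**Figure D4:**
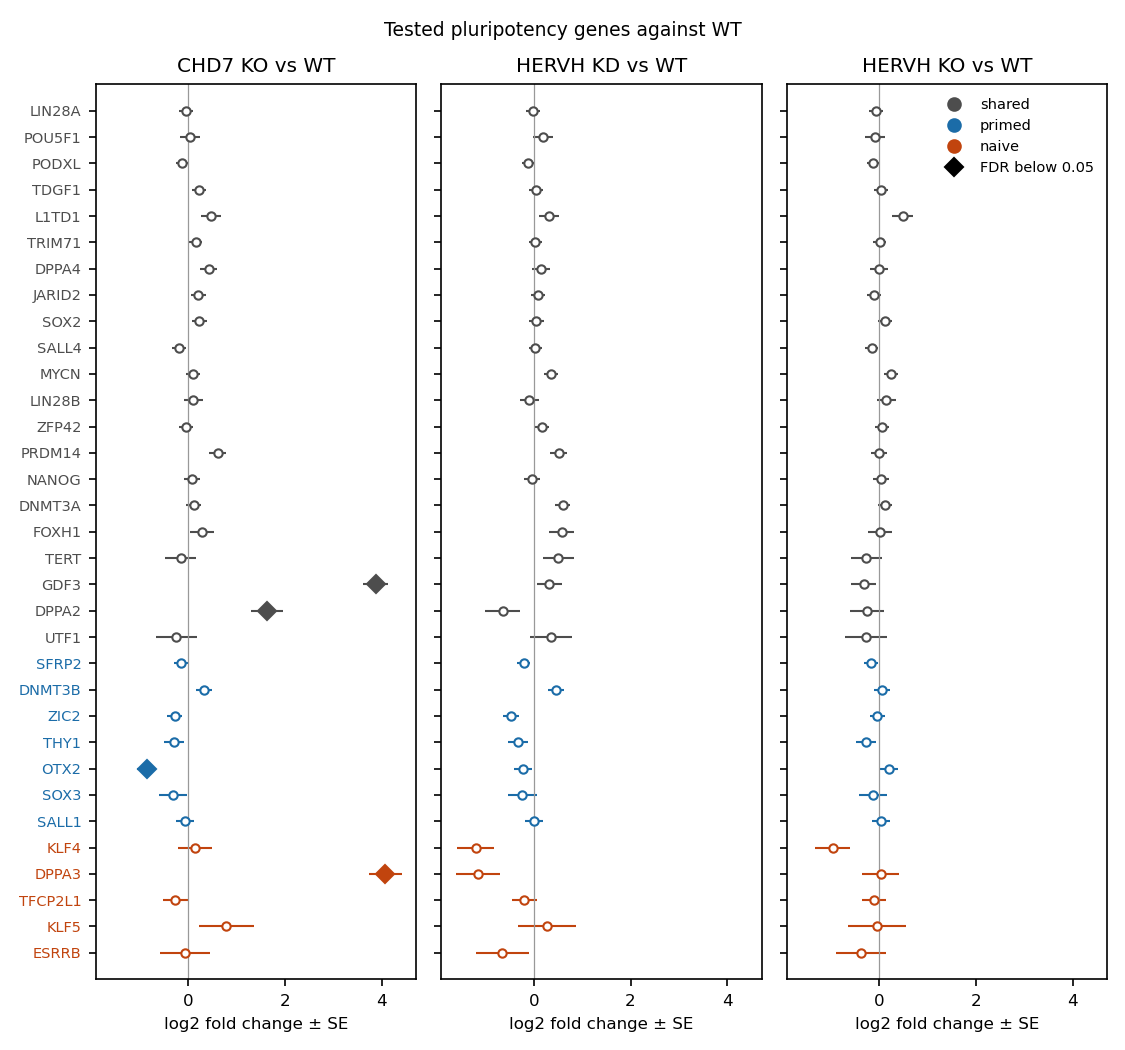
log2 fold change ± SE of the 33 tested genes in the 3 comparisons with WT, from the fit of all 8 libraries, ordered by class and WT level. Diamonds are genes with an FDR below 0.05, which are 4 in CHD7 KO and 0 in both other comparisons. KLF4 lies at -1.20 in HERVH KD.

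The HERVH KD libraries differed from each other in several of these genes. POU5F1 had 829 CPM in replicate 1 and 1474 in replicate 2, a range that enclosed both WT libraries. TERT had 23.0 and 58.0 CPM, SOX3 20.0 and 48.8, and L1TD1 979 and 550. The difference of log2 CPM, replicate 2 minus replicate 1, was 1.33 for TERT, 1.28 for SOX3, 0.83 for POU5F1 and -0.83 for L1TD1, and exceeded 0.5 in either direction for 10 of the 33 genes. Genes of high GC content were higher in replicate 2, with a Spearman rho of 0.633 over the 33 genes and 0.723 over 10904 genes with higher expression. Over the latter, rho of GC content with the difference, replicate 2 minus replicate 1, was 0.471 in WT, 0.384 in HERVH KO and -0.137 in CHD7 KO. Leaving out HERVH KD replicate 1 gave 7 of the 33 genes at an FDR below 0.05 against WT, beside 15.8% of all genes (DNMT3A, FOXH1, LIN28B, OTX2, POU5F1, TERT and THY1), and leaving out replicate 2 gave 7, beside 7.85% of all genes (DNMT3A, DNMT3B, DPPA4, L1TD1, PRDM14, SOX3 and ZIC2), with DNMT3A in both. In these fits the 1 remaining HERVH KD library was assumed to vary like the other groups.

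**Figure D5:**
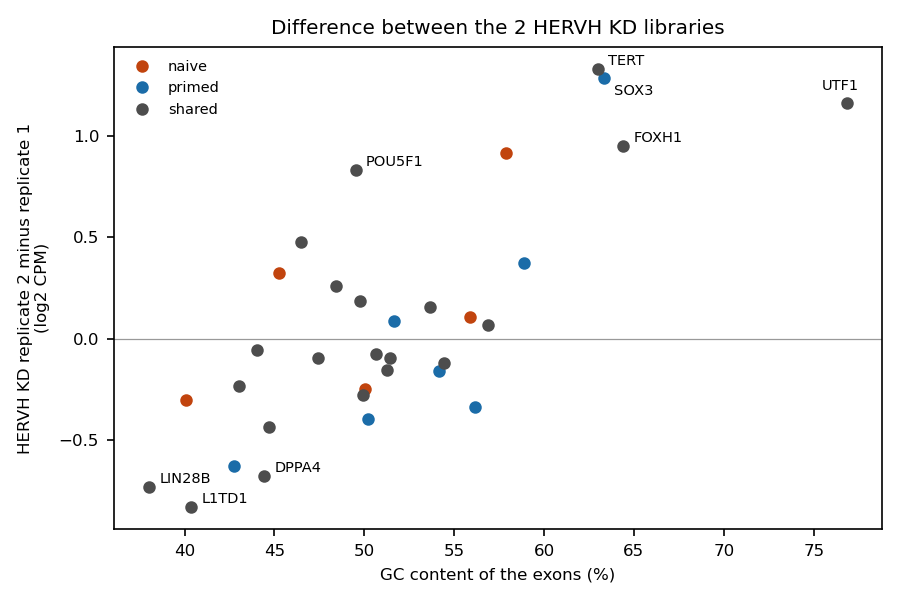
Difference between the 2 HERVH KD libraries (log2 CPM, replicate 2 minus replicate 1) against the GC content of the exons in percent, for the 33 tested genes. TERT (1.33) and SOX3 (1.28) lie at the upper right, and L1TD1 (-0.83) at the lower left.

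Whether deletion of the HERVH element on chromosome 2 changed the pluripotency genes was asked by comparing HERVH KO with WT. No pluripotency gene passed either rule, with 0 of 33 against 0.0298% of all genes as DEGs and 0.0724% at an FDR below 0.05. At an unadjusted p below 0.05 there were 2, KLF4 and L1TD1, beside 2.63% of all genes. DESeq2 also gave 0 at either rule (0.0596% and 0.0852% of all genes). KLF4 had 2.48 and 1.78 CPM in HERVH KO, below both WT libraries (5.54 and 2.81), with a log2 fold change of -0.96 with an SE of 0.37 and an FDR = 1 by edgeR's quasi-likelihood test. L1TD1, whose product binds RNA, had 876 and 843 CPM in HERVH KO against 662 and 566 in WT, with a log2 fold change of 0.49 (SE 0.21, FDR = 1 in edgeR). The 2 L1TD1 groups did not overlap, and neither did those of KLF4, but neither difference passed the adjustment. ESRRB, with a log2 fold change of -0.37 (SE 0.52), came next in size.

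The 3 comparisons with WT share the WT libraries, and the conditions were therefore also set against each other. DPPA3 was 37.3-fold lower in HERVH KD than in CHD7 KO (log2 fold change -5.22 ± 0.39 SE, with an FDR = 5.9e-06 by edgeR's quasi-likelihood test). GDF3 was 11.7-fold lower (log2 fold change -3.55) and DPPA2 4.83-fold lower (log2 fold change -2.27, FDR = 0.00185 in edgeR). These 3 were DEGs of the 33, where 2.66% of all genes were, and KLF4 joined them at an FDR below 0.05 (9.44% of all genes). OTX2 was not called in this comparison, in which the primed genes had a smallest FDR of 0.0551 by edgeR's quasi-likelihood test. KLF4 had 4.62 and 4.57 CPM in CHD7 KO, and its log2 fold change was -1.33 with an SE of 0.38 and an FDR = 0.0435 by edgeR's quasi-likelihood test, a call that was lost without CHD7 KO replicate 1 or 2. Against HERVH KO, CHD7 KO had 4 DEGs among the 33 (1.12% of all genes): GDF3 (log2 fold change 4.19), DPPA3 (4.04), DPPA2 (1.88) and OTX2 (-1.06). OTX2 was 2.09-fold lower in CHD7 KO than in HERVH KO (FDR = 0.00872, edgeR). DPPA2 and OTX2 were no longer DEGs without CHD7 KO replicate 1 or 2 or HERVH KO replicate 1 or 2, and OTX2 was none without WT replicate 1 or 2 or with a CPM filter of 1 either. HERVH KD and HERVH KO differed in 0 of the 33 genes in edgeR's quasi-likelihood test by either rule (0.204% and 1.33% of all genes), with 9 at an unadjusted p below 0.05, beside 19.1% of all genes. DESeq2 gave 0 as well, where 1.27% of all genes were DEGs and 4.61% passed an FDR below 0.05. In a test of any difference among the 4 conditions, GDF3, DPPA3, DPPA2 and OTX2 passed an FDR below 0.05, 4 of 33 where 6.45% of all genes did.

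Other pluripotency and lineage genes were read from lists set beside the 39. The shares of all genes at an FDR below 0.05 beside these counts are again 1.19% higher and 0.613% lower in CHD7 KO. In HERVH KD the share is 2.15% for both directions together, from 145 genes higher and 359 lower. Of 14 other shared genes, 13 were tested, and in CHD7 KO 1 rose, the cadherin gene CDH1 (log2 fold change 0.69, FDR = 0.0348, edgeR quasi-likelihood test), with 320 and 262 CPM in WT and 482 and 460 in CHD7 KO. Of 14 other primed genes, all tested, 3 fell in CHD7 KO: the intermediate filament gene VIM (-1.12, FDR = 0.00144), the zinc finger gene SALL3 (-1.19, FDR = 0.0116) and the ERK phosphatase gene DUSP6 (-0.68, FDR = 0.0317, edgeR). Of 12 other naive genes, 5 were tested, and FGF19 rose in CHD7 KO (1.12, FDR = 0.0317, edgeR), from 10.5 and 11.0 CPM to 25.7 and 21.0. In HERVH KD, VIM rose (0.89, FDR = 0.0112, edgeR).

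Of 27 lineage markers of cells outside the pluripotent state, 12 passed the filter on low counts and 4 were at the floor in every library. These 4 were the endoderm factors GATA4 and GATA6, with at most 3 counts, and CGA and VGLL1 of the trophoblast, at 0. Other markers of the same lists were detected, such as SOX10 of the ectoderm list with 120 and 132 counts in WT, and KRT7 and TFAP2C of the trophoblast list with 139 and 152 and with 141 and 89. The summed level of the 7 ectoderm markers was 280 to 314 CPM in WT and 477 to 611 in CHD7 KO. It was 402 to 738 in HERVH KD and 289 to 316 in HERVH KO, most of it from NES, which is also expressed in hESC. NES rose in HERVH KD (0.96, FDR = 0.0474, edgeR), from 272 and 306 CPM in WT to 396 and 731. Its GC content is 59.3%, and genes of high GC content were higher in HERVH KD replicate 2. In CHD7 KO NES was also higher, with 604 and 470.5 CPM, but was not called (0.89, FDR = 0.0725, edgeR). The 7 endoderm markers summed to 5.08 to 7.997 CPM in WT, 3.07 to 4.39 in CHD7 KO, 13.04 to 13.36 in HERVH KD and 7.31 to 7.499 in HERVH KO, and the 7 mesoderm markers to 4.82 to 6.65 CPM in WT, 5.81 to 6.24 in CHD7 KO, 4.52 to 4.60 in HERVH KD and 4.57 to 5.77 in HERVH KO. FOXA2, an endoderm factor, fell in CHD7 KO (log2 fold change -2.64, FDR = 0.0317, edgeR quasi-likelihood test), with counts of 30 and 106 for WT and 7 and 13 for CHD7 KO. In HERVH KD FOXA2 had 188 and 133 counts (10.3 and 9.69 CPM), most of the endoderm sum there, and a log2 fold change of 1.66 that was not called (FDR = 0.0719, edgeR). The 6 trophoblast markers summed to 11.4 to 13.2 CPM in WT, 15.2 to 18.9 in CHD7 KO, 6.62 to 10.2 in HERVH KD and 8.63 to 9.83 in HERVH KO. The part of these markers in the rise of GDF3, DPPA3 and DPPA2 was not tested.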

How the data were processed

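RNA-seq of 8 libraries of H9 cells was used, 2 for each of the 4 groups named by the sample labels. From strand-specific libraries depleted of rRNA, the authors obtained reads that STAR placed on hg19 (Ensembl release 75 genes) and HTSeq counted per gene. Versions of STAR and HTSeq and the strand setting are not given in the sources used here. The deposited values are unnormalized read counts for 57773 genes, of which 55538 (96.1%) were given symbols and positions from GENCODE release 44 lifted to GRCh37.

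Libraries were scaled by TMM and genes kept by filterByExpr. All 8 libraries were fitted together with edgeR 4.0.16 (quasi-likelihood test, 4 residual degrees of freedom) in R 4.3.3, and p-values were adjusted over all 23474 genes tested. Tables were made in Python 3.11.15 with pandas 2.3.3. In a simulation at HERVH KD and WT depths, the DEG rule recovered 35 of 100 genes changed 2-fold and 94 of 100 changed 4-fold. It made 2 false calls among 22738 genes. The changed genes were drawn from genes with higher counts, so the recovery does not cover genes of low counts such as DPPA3 in WT. Each gene was given the same spread in all groups, with no GC trend between libraries. A gene was expressed at 1 CPM or more in both WT libraries and at the floor with at most 3 counts in each. An SD is the spread between the 2 libraries of a group, and an SE comes from the quasi-likelihood fit of all 8 libraries. Floors cover counting error only. GC content was corrected by loess with a span of 0.3.

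The members and lists were chosen with earlier results of these data known. Named with values were POU5F1, SOX2 and NANOG, genes called, the 3 highest and 3 lowest of each class in WT, and the 3 largest changes in each comparison with WT. Genes named beyond that (such as those at the HERVH KD replicate differences and at 12p13.31) were chosen after their values were seen. Alternatives were RLE scaling, DESeq2 1.42.0, edgeR's exact test, other filters, fits of the groups compared alone, GC correction, a replicate block and each library left out.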

Additional observations from a re-analysis of the deposited data

How the results depend on the processing

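No log2 fold change of a gene called or among the 3 largest of a comparison changed direction under the alternatives run. Class medians did: the primed median in CHD7 KO (-0.28) turned to 0.027 without WT replicate 1, the shared median in HERVH KD (0.15) to -0.041 without HERVH KD replicate 1, and both HERVH KO medians, near 0, under several settings. The share of all genes tested at an FDR below 0.05 ran over all settings from 0.326% to 5.81% for CHD7 KO against WT, 0.0159% to 15.8% for HERVH KD against WT, 1.96% to 23.4% for HERVH KD against CHD7 KO, 0.0329% to 19.5% for HERVH KD against HERVH KO, 0.715% to 10.4% for CHD7 KO against HERVH KO and 1.76% to 23.4% for any difference. With no library left out of a group, at least 2 and at most 3 of the 33 genes were DEGs in CHD7 KO against WT. The share of DEGs among all genes was 0.571% to 1.57% in these settings. At an FDR below 0.05 the number called was 7 with only the groups compared (5.79% of all genes), and it moved with libraries left out. The next numbers are for HERVH KD against WT at an FDR below 0.05. DESeq2, the exact test, no filter, a CPM filter of 1 and the replicate block gave 1 each (2.72% to 5.46% of all genes). GC correction gave 3, both without the block (8.15% of all genes) and with it (7.59%). Leaving a library out changed the number called at either rule there. With no library left out of a group, 0 of the 33 genes were DEGs in HERVH KD against WT, where 0.0277% to 1.76% of all genes were. For HERVH KD against CHD7 KO, libraries left out gave 2 to 4 DEGs and 3 to 12 at an FDR below 0.05. HERVH KD against HERVH KO gave 1 at an FDR below 0.05 with no filter, with GC correction and with GC correction and the block, and 0 to 1 DEGs and 0 to 7 with libraries left out. CHD7 KO against HERVH KO gave 8 at an FDR below 0.05 with only the groups compared (10.4% of all genes). Here too the number called at either rule changed with libraries left out. The test of any difference gave 7 with DESeq2, 9 with no filter, 8 with GC correction, 7 with GC correction and the block, and 2 to 13 with libraries left out. The median of the primed genes was -0.15 with GC correction and -0.16 with the block added for CHD7 KO, -0.28 and -0.27 for HERVH KD, and 0.074 and 0.082 for HERVH KO, where RLE scaling and DESeq2 gave -0.028, only the groups compared -0.029, no filter -0.030 and a CPM filter -0.024 against -0.041. With libraries left out, primed medians ran from -0.29 to 0.027 in CHD7 KO, -0.26 to -0.066 in HERVH KD and -0.11 to 0.060 in HERVH KO, and shared medians from 0.067 to 0.21, -0.041 to 0.21 and -0.0082 to 0.043. The cause of these moves was not tested. The replicate numbers of the labels were not a stated pairing: deviations of same-numbered libraries correlated at -0.277 between WT and CHD7 KO, 0.353 between WT and HERVH KD and 0.513 between WT and HERVH KO, and the block left 2 DEGs and 4 genes at an FDR below 0.05 in CHD7 KO. The crossed pairing, added after seeing the data, gave 2 and 5. The number expressed in WT was 33 at 0.5 CPM, 30 at 2 CPM and 31 to 32 with 1 WT library.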

Other observations

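DPPA5, a naive gene that did not pass the filter, lies in a cluster of oocyte and germline genes at 6q13 on chromosome 6, and its neighbours were read from the counts after their values were seen. Counts of DPPA5 were 0 and 0 for WT and 1 and 8 for CHD7 KO. KHDC3L, a subunit of the maternal complex of the oocyte, had 0 and 0 in WT and 4 and 3 in CHD7 KO. OOEP, another subunit of that complex, had 0 and 0 in WT and 0 and 6 in CHD7 KO, and the helicase gene DDX43 had 0 and 0 in WT and 0 and 5 in CHD7 KO. In HERVH KD and HERVH KO these 4 genes had at most 1 count in a library. The counts are near the floor of 3 and most come from CHD7 KO replicate 2, and no test was made. The DPPA3 pseudogene DPPA3P2 was counted 0 and 0 times in WT, 7 and 11 times in CHD7 KO, 0 and 0 times in HERVH KD and 3 and 4 times in HERVH KO.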
